A study of Homo sapiens with 6 samples.

Results

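SWI/SNF complexes use the energy of ATP to slide or evict nucleosomes, and so change which DNA other factors can reach. The BAF form is assembled around the ARID1A or ARID1B subunit. The polybromo form, PBAF, carries ARID2, PBRM1 and BRD7 instead. Both forms share an ATPase, which is SMARCA4 (BRG1) or SMARCA2 (BRM), and a core that includes SMARCB1, SMARCC1 and SMARCC2. Genes of several of these subunits are recurrently mutated in human cancers. The transcripts of 10 of these subunits, chosen by gene symbol, are described here out of 28008 genes in the deposited count table. Earlier results of these data were known when these subunits were chosen. There were 2 BAF-specific, 3 PBAF-specific and 5 shared subunits, and all 10 were found and passed the filter on low counts.

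The cells were DU-145-DR/tet-MUC1shRNA cells, measured by RNA-Seq. DU-145 is a human prostate cancer line, DU-145-DR is its derivative kept under docetaxel (DTX) until resistant, and tet-MUC1shRNA is a vector that makes a hairpin RNA against MUC1 when doxycycline (DOX) is present. Cells of the 3 DOX-negative libraries had received 0.1% DMSO as vehicle, and cells of the 3 DOX-positive libraries had received 500 ng/ml DOX. The study made these libraries from triplicate cultures of 1 line. The treatment label of DOX-negative samples gives only DTX resistance and that of DOX-positive samples only the hairpin, so that all 6 libraries share both is taken from the titles and the study. By the study's supplement, DOX or vehicle was given for a week. A control hairpin was not analysed here, so silencing of MUC1, exposure to DOX and other effects of the hairpin cannot be told apart.

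Library totals ranged from 15092691 to 23243713 counts, so that a floor of 3 counts corresponded to 0.129 to 0.199 CPM (counts scaled to the library total; all other CPM values below also use TMM factors). MUC1 fell from 21.9 ± 2.58 to 3.86 ± 0.584 CPM (SD, n = 3 each), with a log2 fold change of -2.52 and an SE of 0.146 (edgeR adjusted p 4.47e-11). Among prostate and neuroendocrine markers, KLK3, CHGA and INSM1 had 0 counts in all 6 libraries. All 5 epithelial markers (KRT8, KRT18, KRT19, EPCAM and CDH1) rose, and their summed level went from 757 to 837 CPM without DOX to 1444 to 1516 CPM with DOX. The 5 stromal markers summed to 4.01 to 5.59 CPM across the libraries. Of the 4 leukocyte markers, CD3E and MS4A1 were at 0, PTPRC had at most 3 counts, and CD68 carried the sum of 91.4 to 179 CPM and rose. The part of these markers in the results below was not tested. In bulk RNA, fewer cells that express a gene and less RNA per cell cannot be told apart.

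Of the 10 subunits, 3 fell and 1 rose with DOX at an adjusted p under 0.05 (edgeR quasi-likelihood test, Benjamini-Hochberg over 14292 genes), where 26.7% of all genes tested were called (13% higher and 13.7% lower; DESeq2 called 25.6% of those it tested). ARID2, SMARCC2 and PBRM1 fell, and SMARCC1 rose. The members called were thus little more than 1 gene above that share, and the 4 called changes were between 12.7% and 27.8% of the DOX-negative level in size. The median log2 fold change over the members was -0.088, beside -0.0034 over all genes tested. It was -0.030 without DOX-negative replicate 2 and -0.031 with trends with GC content and length removed. By role, 0 of the 2 BAF-specific subunits were called, 2 of the 3 PBAF-specific subunits were called lower, and the 5 shared subunits held 1 rise and 1 fall. Levels of the groups did not overlap for 7 of the 10 members, of which 3 were higher and 4 lower with DOX, where 39.8% of all genes tested did not overlap (19.5% higher and 20.2% lower).

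**Figure D1:**
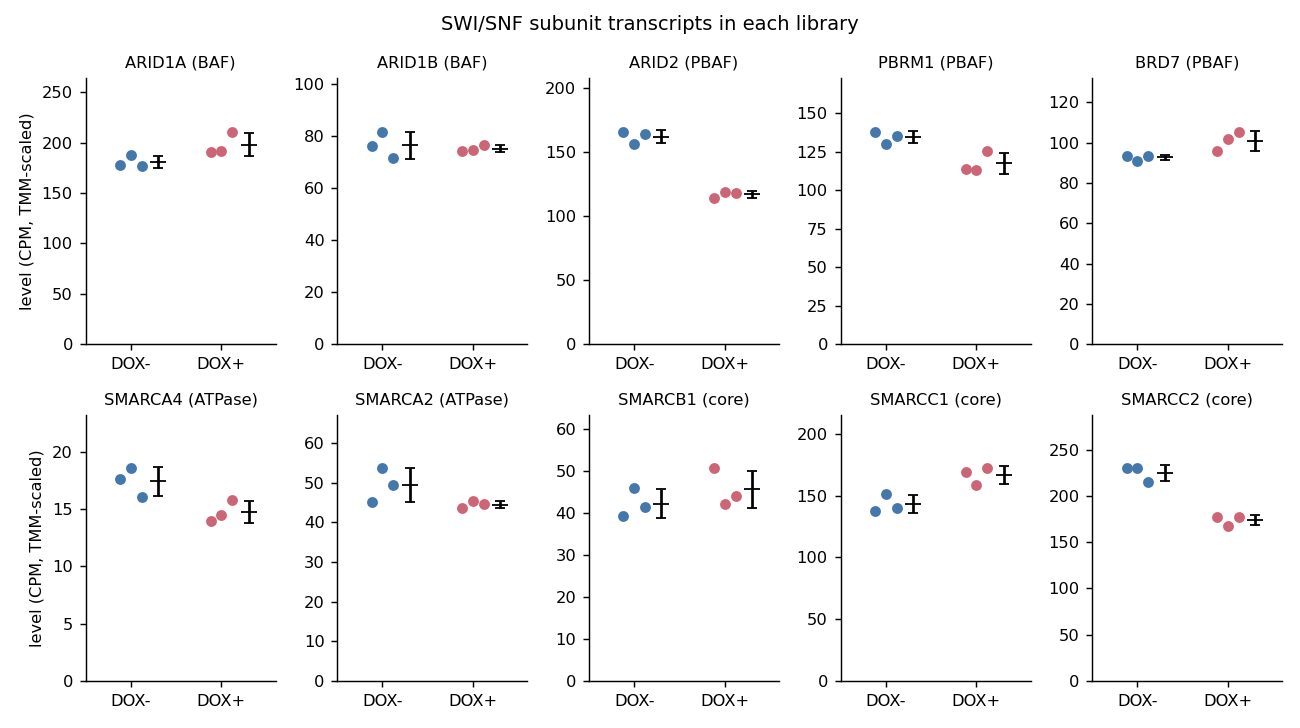
TMM-scaled CPM of the 10 subunits in each library, with DOX-negative cultures in blue and DOX-positive cultures in red; bars are the mean ± SD of 3 libraries and each vertical axis starts at 0. ARID2 and SMARCC2 show the widest gaps between the groups, with every DOX-positive library below every DOX-negative library, while ARID1B, SMARCA2 and SMARCB1 overlap.

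Among the PBAF-specific subunits ARID2 and PBRM1 fell and BRD7 was not called. ARID2, the large AT-rich interaction domain protein found in PBAF and not in BAF, lies on chromosome 12 (GRCh38, 45729665 to 45908040, plus strand). Without DOX it had 3014, 3054 and 3292 counts, or 166, 156 and 164 CPM, and with DOX it had 2615, 2279 and 1750 counts, or 114, 119 and 118 CPM. The groups were separated by a gap several times wider than the spread within either group. ARID2 went from 162 ± 5.11 to 117 ± 2.63 CPM (SD, n = 3 each) and so fell by 27.8%, with a log2 fold change of -0.47 and an SE of 0.0634 (edgeR adjusted p 8.65e-06).

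PBRM1 (polybromo-1, chromosome 3, 52545352 to 52685917, minus strand) binds acetylated histone tails through its array of bromodomains. Its levels were 138, 130.3 and 135 CPM without DOX and 114, 113 and 126 CPM with DOX. The groups did not overlap, but the highest DOX-positive library lay close to the lowest DOX-negative library. PBRM1 fell by 12.7% (a change of -0.20 on the log2 scale, SE 0.0668, with an edgeR adjusted p of 0.0324). This call depends on single libraries: without DOX-negative replicate 1 the adjusted p was 0.135, without DOX-negative replicate 3 it was 0.0736, without DOX-positive replicate 1 it was 0.127 and without DOX-positive replicate 2 it was 0.0782. BRD7, the remaining PBAF-specific member and also a bromodomain protein, had 93.6, 91.1 and 93.3 CPM without DOX and 95.7, 102 and 105 CPM with DOX. The groups did not overlap, with DOX-positive libraries the higher, but the log2 fold change of 0.12 (SE 0.0679) did not pass the test (edgeR adjusted p 0.197). In the annotation BRD7 has 5 genes named as its pseudogenes, so the assignment of some of its reads is uncertain.

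The BAF-specific subunits were not called. ARID1A, the more abundant of the paralogous ARID1 transcripts per length, had 178, 187 and 177 CPM in DOX-negative cells and 191, 192 and 211 CPM in DOX-positive cells. The groups did not overlap, with DOX-positive cultures the higher, and the log2 fold change was 0.13 (SE 0.0641, edgeR adjusted p 0.141). ARID1B, its mutually exclusive paralog, had 76.2, 81.7 and 71.3 CPM without DOX and 74.4, 74.4 and 76.6 CPM with DOX. These groups overlapped fully, with a log2 fold change of -0.024 and an SE of 0.0730 (edgeR adjusted p 0.847).

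The ATPases are the motor of the complex, and both were present at low to moderate levels. SMARCA4 had only 321, 363 and 322 counts without DOX and 320, 278 and 235 counts with DOX, or 17.7, 18.6 and 16.0 CPM and 13.9, 14.5 and 15.8 CPM. The DOX-positive libraries were all lower, by a margin of less than 1 CPM at the nearest pair. Its log2 fold change of -0.24 (SE 0.112) did not pass the test (edgeR adjusted p 0.115), and its SE was the largest of the 10 members. SMARCA2 had 45.1, 53.6 and 49.4 CPM without DOX and 43.6, 45.2 and 44.5 CPM with DOX. Its groups overlapped, with a log2 fold change of -0.15 and an SE of 0.0826 (edgeR adjusted p 0.183).

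The SMARCC scaffold proteins, which pair with each other in the core of the complex, changed in opposite directions in the count fits. SMARCC2 (BAF170, chromosome 12, 56162983 to 56189567, minus strand) had 4180, 4495 and 4329 counts without DOX and 4076, 3209 and 2639 with DOX. These were 230.1, 229.9 and 215 CPM and 178, 168 and 177 CPM, so the groups were well apart. SMARCC2 went from 225 ± 8.43 to 174 ± 5.71 CPM (SD, n = 3 each) and fell by 22.6%, with a log2 fold change of -0.37 and an SE of 0.0620 (edgeR adjusted p 0.000122).

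SMARCC1 (BAF155, chromosome 3, 47585272 to 47782106, minus strand) had 138, 152 and 140.0 CPM without DOX and 169, 159 and 172 CPM with DOX. All DOX-positive libraries were higher than all DOX-negative libraries. SMARCC1 went from 143 ± 7.39 to 167 ± 6.95 CPM (SD, n = 3 each), a rise of 16.4% with a log2 fold change of 0.22 and an SE of 0.0654 (edgeR adjusted p 0.0158), which turned to -0.17 on the deposited TPM, where the median of all genes moved to -0.32 or lower. The call was lost without DOX-negative replicate 1 (adjusted p 0.0963), DOX-negative replicate 3 (0.0514), DOX-positive replicate 1 (0.0566) or DOX-positive replicate 3 (0.0767). SMARCB1, the core subunit whose loss defines rhabdoid tumours, had 39.2, 46.1 and 41.5 CPM without DOX and 50.7, 42.1 and 44.2 CPM with DOX. Its groups overlapped, and the log2 fold change was 0.11 (SE 0.0899, edgeR adjusted p 0.388).

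Several of these genes share exon bases with a gene on the opposite strand, and whether reads were counted by strand is not given in the sources used here. SMARCC2 shares 514 bases with MYL6, a myosin light chain, which had a log2 fold change of 0.10 (edgeR adjusted p 0.356). BRD7 shares 3593 bases with ADCY7, an adenylyl cyclase, which fell (log2 fold change -1.06, edgeR adjusted p 2.78e-07). SMARCB1 shares 2923 bases with DERL3 (adjusted p 0.357), and PBRM1 shares 146 bases with SMIM4 (log2 fold change -0.56, edgeR adjusted p 0.0812). ARID2 and SMARCC1 share none with another annotated gene.

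Ratios of pairs of subunits were then taken within each library, where scaling between libraries plays no part. The log2 ratio of SMARCC1 to SMARCC2 counts was -0.74, -0.60 and -0.62 without DOX and -0.071, -0.078 and -0.044 with DOX. The ratio was 1.5-fold higher with DOX, and the groups were far apart. The log2 ratio of ARID1A to ARID2 counts was 0.10, 0.26 and 0.11 without DOX and 0.74, 0.69 and 0.84 with DOX, a ratio 1.52-fold higher. It compares the transcripts of 1 BAF-specific and 1 PBAF-specific subunit, and the amounts of the complexes were not measured. Of the other specific subunits, PBRM1 was called lower, and BRD7 and ARID1B were not called. The ratio of ARID1A to ARID1B was 1.11-fold higher and its groups did not overlap either. For each of these 3 ratios the exact two-sided permutation p was 0.1, which is the smallest that 3 against 3 libraries allow, and the value adjusted over the 4 ratios was 0.133. The log2 ratio of SMARCA4 to SMARCA2 differed by -0.091, its groups overlapped, and the exact permutation p was 0.5. This difference was -0.015 without DOX-negative replicate 1 and -0.15 without DOX-negative replicate 3.

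**Figure D2:**
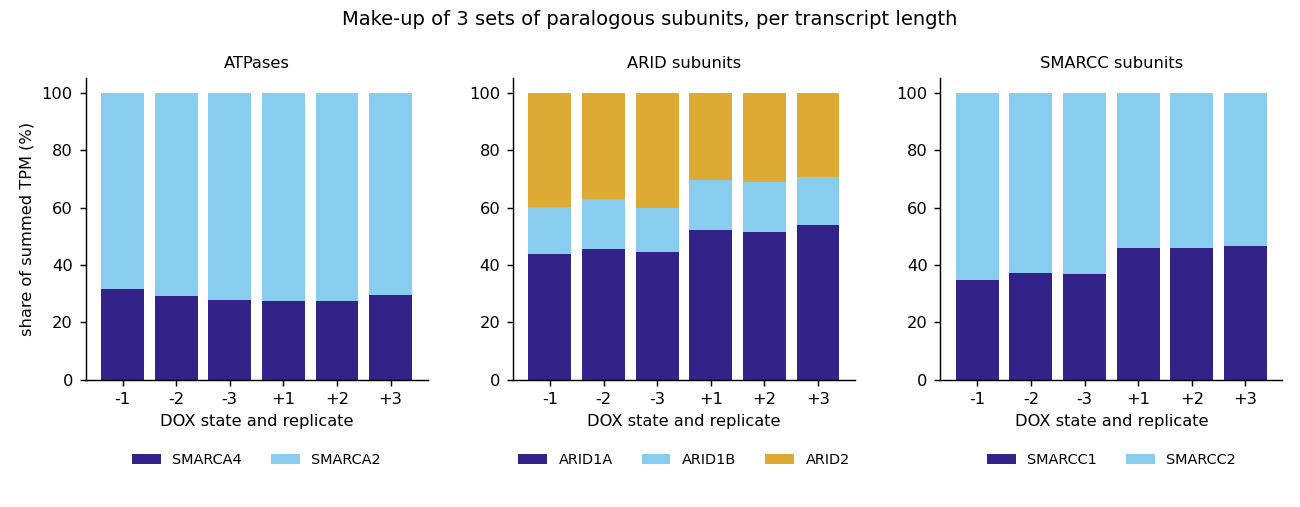
Share of each subunit in the summed TPM (per transcript length) of its set (ATPases, ARID subunits or SMARCC subunits), in percent. Each of the 6 libraries is shown (minus and plus for DOX state, then the replicate). ARID2 goes from a mean of 39.0% to 30.3% of the ARID set and SMARCC1 from 36.3% to 46.1% of the SMARCC pair, while the ATPase shares overlap between the groups.

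Levels per transcript length allow subunits to be compared with each other. TPM values were rescaled for this after 5 short noncoding RNAs were left out, which held 34.4% to 64.4% of the deposited TPM of a library. In DOX-negative cells SMARCC2 (118 TPM) and BRD7 (118 TPM) were highest and their ranges overlapped. They were followed by SMARCC1 (67.3 TPM), ARID1A (56.1 TPM), ARID2 (49.0 TPM), PBRM1 (43.6 TPM) and SMARCB1 (33.0 TPM), whose ranges did not overlap with that of the next in order. ARID1B (20.5 TPM) and SMARCA2 (19.2 TPM) overlapped. SMARCA4 was lowest of the 10 in every library, with a mean of 8.03 TPM without DOX and 6.68 TPM with DOX, between the 28.3 and 32.5 percentiles of 14130 genes. SMARCA4 made up 29.5% ± 2.01 of the ATPase transcripts without DOX and 28.1% ± 1.20 with DOX (SD, n = 3 each).

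In DOX-positive cells BRD7 (126 TPM) was above SMARCC2 (90.0 TPM) without overlap. ARID2 (34.7 TPM) went from rank 5 to rank 7, and its range overlapped with those of SMARCB1 (35.0 TPM) and PBRM1 (37.4 TPM). Of the 10 members, 5 had another rank than in DOX-negative cells, or 3 when DOX-negative replicate 2 was left out. The share of ARID transcripts that were ARID1A went from 44.6% ± 0.934 to 52.5% ± 1.20, and that of ARID1B from 16.3% ± 0.861 to 17.3% ± 0.338 (SD, n = 3 each).

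The remaining SWI/SNF subunits were read from the same fit. Of 21 listed genes 20 were tested, of which 2 were called higher and 2 lower, where 26.7% of all genes were called, and their median log2 fold change was -0.044. SS18, a BAF subunit known from its fusion in synovial sarcoma, went from 304 ± 15.4 to 253 ± 2.60 CPM (SD, n = 3 each; log2 fold change -0.26, SE 0.0610, edgeR adjusted p 0.00283). Its paralog SS18L1 also fell (log2 fold change -0.34, SE 0.0993, edgeR adjusted p 0.0140). BCL7B rose, with a difference of 0.31 (log2, SE 0.0950) and an edgeR adjusted p of 0.0173, though its groups overlapped in CPM. BCL11A was called higher at very low counts, with 9, 1 and 2 counts without DOX and 17, 13 and 9 with DOX (edgeR adjusted p 0.0445). With any 1 library left out, 1 of these subunits was called higher, and without DOX-negative replicate 1 only 1 was called lower. ACTL6B, the neuronal actin-like subunit, had at most 1 count and was not tested.

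**Figure D3:**
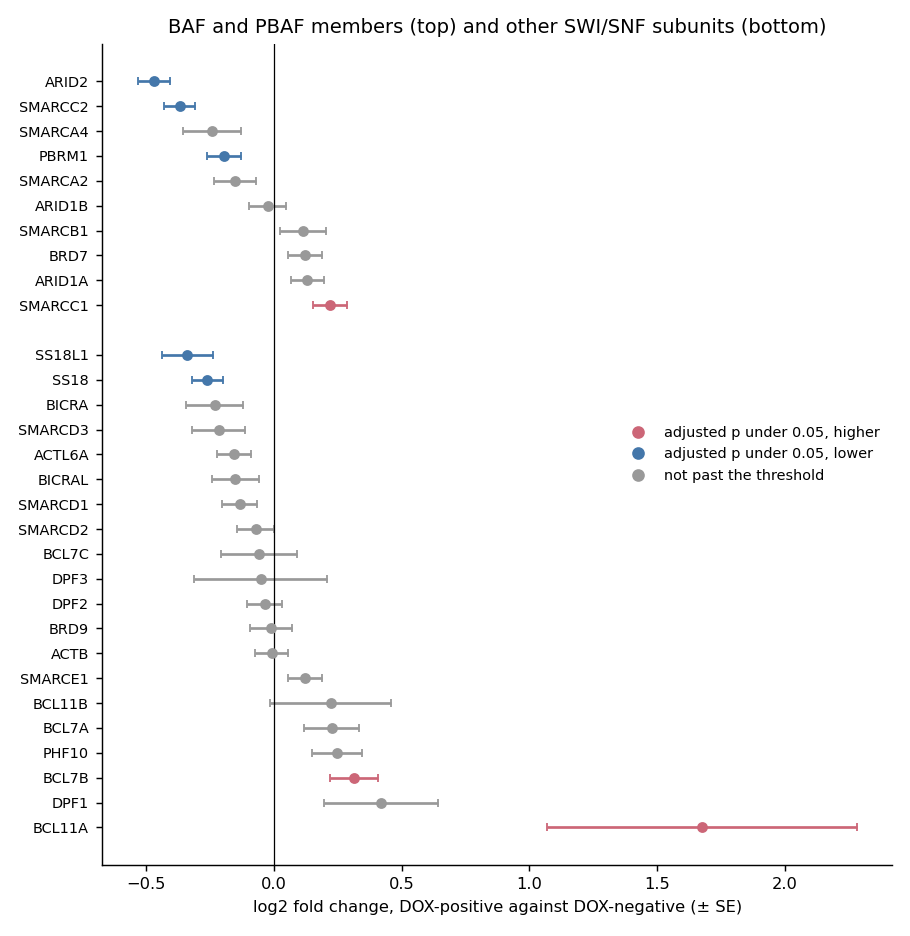
Log2 fold change of DOX-positive against DOX-negative cells with its SE (edgeR, 3 libraries a group) for the 10 members above and 20 further SWI/SNF subunits below; colour marks an adjusted p under 0.05. Most subunits lie within 0.3 of 0, with ARID2 and SMARCC2 the lowest and BCL11A, at very low counts, far to the right. On the deposited TPM, which is not drawn here, SMARCC1 turns negative. The median of all genes is -0.32 or -0.39 there, and relative to it SMARCC1 is 0.15 or 0.21.

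Genes of the ISWI, INO80/SRCAP and CHD families of remodellers, listed together with ATRX and HELLS, gave a further point of reference. Of 34 listed genes 33 were tested, with 2 called higher and 3 called lower, where 13% and 13.7% of all genes were, and a median log2 fold change of -0.042. CECR2, a bromodomain partner of ISWI ATPases, went from 31.5 ± 1.81 to 13.7 ± 0.898 CPM (SD, n = 3 each; log2 fold change -1.20, SE 0.101, edgeR adjusted p 1.34e-08). BAZ1A, the ACF1 subunit of ISWI complexes, fell (log2 fold change -0.33, SE 0.0594, edgeR adjusted p 0.000229), as did the CHD ATPase gene CHD6 (-0.34, SE 0.0817, edgeR adjusted p 0.00384). The INO80 complex subunits INO80C (0.40, SE 0.0775, edgeR adjusted p 0.000559) and INO80D (0.44, SE 0.0830, edgeR adjusted p 0.000447) rose in the count fits and were not called on the deposited TPM. INO80B had 3 to 8 counts and was not tested.

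The transcripts of the members were also read for a short sequence that moved with the change. In a scan of 15741 heptamers over the 3′UTRs of 12087 other genes, the heptamer most associated with lower levels under DOX was ATCAGTA, read on the sense strand. It was chosen on these same libraries, with the members and MUC1 left out. A lower level of the other genes that hold it was therefore partly fixed by that choice. Among other genes, 16.8% held at least 1 copy in their principal transcript. Their median log2 fold change was -0.087 and 28.0% of them were called lower, against 0.0066 and 12.3% for genes with 0 copies. For genes with a copy in the 3′UTR, the median was -0.11 and 32.5% were called lower. For genes with copies before the 3′UTR only, these values were -0.049 and 21.9%. Members have long transcripts, and among 3721 other genes of the same length range (4076 to 8642 bases) 26.4% held a copy. In that range 28.1% of genes with a copy and 16.4% of genes with none were called lower.

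At least 1 copy was present in 8 of the 10 members. The 3 members that fell all held it, and of the remaining 5 holders 3 had negative and 2 positive changes, none called. BRD7 and SMARCC1, which held 0 copies, both had positive changes in the count fits. On the deposited TPM, where the median of all genes was -0.32 or lower, both changes were negative. ARID2 held 2 copies and was the only member with more than 1. The copies in PBRM1, SMARCA4 and SMARCB1 were in the 3′UTR, and those in ARID1A, ARID1B, SMARCA2 and SMARCC2 were in coding sequence. Among coding transcripts of the GENCODE 29 annotation, 4 of 4 for ARID2, 8 of 8 for PBRM1 and 2 of 4 for SMARCC2 held the heptamer. For the remaining holders these were 4 of 5 for ARID1A, 7 of 8 for ARID1B, 16 of 18 for SMARCA4, 16 of 17 for SMARCA2 and only 1 of 4 for SMARCB1. MUC1 itself held 1 copy, outside its 3′UTR. The sites of the members that fell, and for contrast that of ARID1A, which held a copy and did not fall, are given 5′ to 3′ on the strand of the transcript with 11 bases on either side and the heptamer in capitals. They lie in ARID2 at chr12:45852076-45852104 (plus strand, coding) and chr12:45905597-45905625 (plus strand, 3′UTR), in PBRM1 at chr3:52548000-52548028 (minus strand, 3′UTR), in SMARCC2 at chr12:56164538-56164566 (minus strand, coding) and in ARID1A at chr1:26779303-26779331 (plus strand, coding), all in GRCh38.
ARID2 coding: agtgctcactaATCAGTAatgggccatca
ARID2 3′UTR: tttgtttagaaATCAGTAgcttggttttc
PBRM1 3′UTR: aagagttgtggATCAGTAgccattttagt
SMARCC2 coding: tagctgactccATCAGTAttaacctcccc
ARID1A coding: aggagaagctgATCAGTAagtttgacaag

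A match to 7 bases is a description, and whether any of these sites is bound, or whether the heptamer has a part in the changes of ARID2, SMARCC2 and PBRM1, was not tested. Among all 30 SWI/SNF subunits tested, 12 held the heptamer, of which 4 were called lower and 1 higher. Of the 18 without it, 1 was called lower and 2 higher. Among other genes, 28.0% of those with a copy and 12.3% of those with 0 copies were called lower. Subunits beyond the members were not left out of the scan, so these counts are no separate check of the heptamer. SS18 held 2 copies in its 3′UTR, whereas SS18L1, which also fell, held 0.

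**Figure D4:**
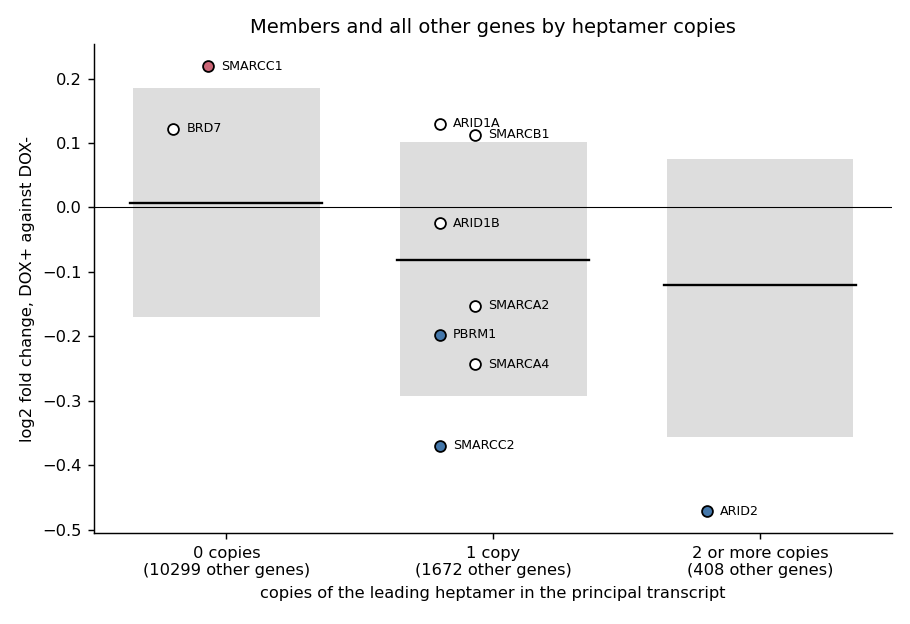
Log2 fold change (DOX-positive against DOX-negative) by number of copies of the heptamer in the principal transcript; grey boxes span the quartiles of all other genes with their median as a line, and circles are the 10 members, blue when called lower, red when called higher and open when not called. The median of other genes is 0.0066 with 0 copies, -0.081 with 1 copy and -0.12 with 2 or more. The heptamer was chosen on these other genes, so their lower medians with copies were partly fixed by that choice. ARID2, with 2 copies, lies lowest of the members.

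The changes were followed through 17 other ways of processing. ARID2 was lower in all 17 and called in 15, and SMARCC2 was likewise lower in all 17 and called in 15. The alternatives in which both lost the call were those on the deposited TPM, whose median over all genes was -0.32 with a pseudocount of 1 and -0.39 with a pseudocount of 0.1. Relative to the median of all genes, ARID2 stayed between -0.50 and -0.43 and SMARCC2 between -0.43 and -0.32. PBRM1 was lower in all 17 and called in 8. SMARCC1 was called in 10, and lay between 0.15 and 0.26 relative to the median of all genes.

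**Figure D5:**
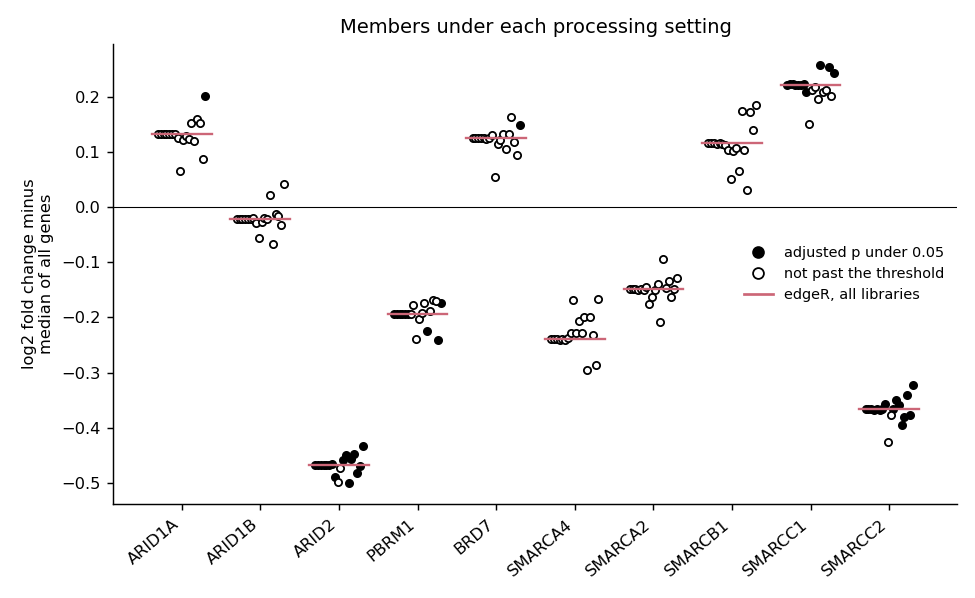
Log2 fold change of each member minus the median of all genes, under edgeR with all libraries (red line and first circle) and 17 alternatives (the other circles, in a fixed order); filled circles have an adjusted p under 0.05. ARID2 and SMARCC2 stay lowest throughout and are called in 15 of 17, while PBRM1 is called in 8 and SMARCC1 in 10.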

How the data were processed

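Libraries were poly(A)-selected and stranded (TruSeq Stranded mRNA). The authors deposited whole-number read counts per gene and, for 25546 of the 28008 genes, TPM values; the submitters' processing notes name STAR, DESeq2 and the build GRCh38 (hg38). Annotation, counting step and strand setting are not given in the sources used here. Counts were fitted in R 4.3.3 with edgeR 4.0.16 (filterByExpr, TMM factors 0.986 to 1.03, glmQLFit and glmQLFTest, group as the only term, two-sided, Benjamini-Hochberg over 14292 genes, threshold 0.05). The SE is the absolute log2 fold change over the square root of F. The fit was tested on simulated counts.

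Members and lists were chosen with earlier results of these data known. Named genes were MUC1, the members, called or untested genes of both reference lists, and the 3 genes most like each ATPase; marker genes came from short lists per cell type, and overlapping genes were added after their values were seen. Some marker genes are not reported here. Within a group, libraries differed beyond counting noise (chi-square per degree of freedom 3.65 to 19.0). The detection floor (3 counts) allows for counting error alone.

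Alternatives were scaling by RLE factors or by total counts, DESeq2 1.42.0, a fit of all genes or of those with 10 or more counts in each library, a replicate block, thinning to the smallest library, limma 3.58.1 on log2(TPM + 1), log2(TPM + 0.1) and TPM without 5 short noncoding RNAs (RN7SL1, RN7SL2, RN7SL3, RN7SK, RPPH1), each library left out, and, added after the data were seen, removal of trends with GC content and length. TPM fold changes understate low genes.

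Transcripts and sequences came from GENCODE 29 on GRCh38. The heptamer scan used principal transcripts with a 3′UTR of at least 50 bases and heptamers in at least 100 genes, ranked by the difference in mean log2 fold change between genes with and without each, over its standard error, with changes limited to 2 either way and adjusted for 3′UTR length and GC content.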

Additional observations from a re-analysis of the deposited data

How the results depend on the processing

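Of 170 values (10 members under 17 alternatives), 140 kept direction and side of the threshold. PBRM1 lost its call with a replicate block (log2 fold change -0.20, adjusted p 0.0743), with thinning (adjusted p 0.0533) and on TPM without the short noncoding RNAs (0.0576), where SMARCC1 also lost its call (0.0696) and 0 members were called higher. On log2(TPM + 1) and log2(TPM + 0.1), 0 members were called in either direction, ARID1A was -0.26 and -0.26, BRD7 -0.27 and -0.27, SMARCB1 -0.27 and -0.28 and SMARCC1 -0.17 and -0.17. The calls over all genes fell to 443 and 408, of which 6.77% and 7.11% were higher (48.8% with edgeR on counts), the median over members was -0.43 and -0.47, 0 other SWI/SNF subunits were called, and of other remodellers 0 were called higher and 1 lower. Among calls, 39.3% were higher with total counts, 43.0% on TPM without the short noncoding RNAs and 54.6% with GC and length trends removed. With these trends removed, ARID1A (0.21, adjusted p 0.00809) and BRD7 (0.16, adjusted p 0.0485) passed, so that 3 members and 4 other remodellers were called higher, and ARID1B was 0.054. Other SWI/SNF subunits called higher were 1 under DESeq2, no filter, at least 10 counts, the block, thinning, TPM without the short noncoding RNAs and every leave-one-out fit. Other remodellers called lower were 6 with total counts and 5 with no filter. The cause of these moves was not tested.

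Leaving out each library in turn gave 0 to 1 members called higher and 2 to 3 lower, 1 to 2 other SWI/SNF subunits lower, 3 to 5 other remodellers lower and 3 to 5 members with another rank by level; the median over members ranged from -0.11 to -0.030, the log2 ratio of SMARCA4 to SMARCA2 from -0.15 to -0.015, ARID1B from -0.071 to 0.027, SMARCB1 from 0.028 to 0.18 and PBRM1 from -0.25 to -0.17. Same-numbered libraries did not deviate together (correlations -0.019, -0.095 and -0.027). These values cannot settle whether same-numbered cultures were handled together. The replicate block changed the call of no member other than PBRM1.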

Other observations

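The genes whose levels over the 6 libraries ran most closely with those of the ATPases were listed among 9947 genes with an average log2 CPM of at least 3. For SMARCA4 they were HTRA2 (Pearson's r 0.992), PLEKHA8 (0.987) and ARHGEF10 (0.986), and for SMARCA2 they were GMPPA (0.988), PBX2 (0.984) and CERS5 (0.982). With 6 libraries in 2 groups such values are common: 230 genes had r over 0.9 with SMARCA4 and 46 with SMARCA2. The points share their libraries and their depth, and no test was made.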
